A study of Mus musculus with 18 samples.

Results

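Aminoacyl-tRNA synthetases join each amino acid to its transfer RNA and so supply the charged tRNAs that ribosomes read. For most amino acids a cytosolic and a separate mitochondrial enzyme exist, both encoded in the nucleus. When amino acids run short or protein folding is disturbed, the transcription factor ATF4 is made and raises many cytosolic synthetase genes together with genes of amino acid synthesis and uptake, while tryptophanyl-tRNA synthetase is also known as an IFNγ-induced protein.

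The genes described here are 35 synthetase genes, of which 19 encode cytosolic and 16 mitochondrial enzymes. *Gars1* and *Kars1*, counted as cytosolic, also make the mitochondrial enzyme for glycine and lysine. They were found as the probe sets annotated with a single symbol that is one of the 35 names, the cytosolic ones also in their older form without the final 1. This gave 72 of the 45037 probe sets of the array, with 40 for cytosolic and 32 for mitochondrial genes, and 68 of them, covering all 35 genes, passed the filter on low signal.

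Newly transcribed RNA of NIH-3T3 cells, an established line of mouse embryonic fibroblasts, was measured on 18 Affymetrix arrays, 3 for each of 6 treatments. Cultures received the solvent DMSO or cycloheximide (CHX), which stops translation, and 15 min later a mock treatment, IFNα or IFNγ at 100 U/ml for 1 h. 4-thiouridine (4sU) at 500 µM was present during the last 30 min, so that only RNA made in that window was tagged and purified, and CHX had by then acted for 75 min in all. The 6 groups are called mock, IFNα, IFNγ, CHX, CHX with IFNα and CHX with IFNγ, and the study calls the 3 arrays of each biological replicates. The design asks which changes with IFN need new protein, and what CHX itself does to transcription.

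Of the cytosolic genes, 5 that were lower with CHX in the results that follow hold the core of the amino acid response element in their promoter. They are shown because this element is the site through which ATF4 acts on amino acid response genes. Each is the RefSeq promoter on the mouse build GRCm38.p6, from 250 bases before to 50 bases after the start of the gene, written 5′ to 3′ on the strand of the gene. Capitals mark the element TGATGNAA, or TTNCATCA where it lies on the other strand. *Gars1* lies at chr6:55037751-55038050 on the plus strand, *Yars1* at chr4:129189653-129189952 (plus), *Tars1* at chr15:11399609-11399908 (minus), *Aars1* at chr8:111033592-111033891 (plus) and *Iars1* at chr13:49681880-49682179 (plus).
Gars1: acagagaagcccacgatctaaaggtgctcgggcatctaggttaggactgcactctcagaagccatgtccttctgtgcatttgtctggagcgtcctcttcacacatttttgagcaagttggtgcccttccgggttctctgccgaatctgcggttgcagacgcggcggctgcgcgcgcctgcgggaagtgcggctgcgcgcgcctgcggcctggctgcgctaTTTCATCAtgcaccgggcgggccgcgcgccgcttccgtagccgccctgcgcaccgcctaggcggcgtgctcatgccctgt
Yars1: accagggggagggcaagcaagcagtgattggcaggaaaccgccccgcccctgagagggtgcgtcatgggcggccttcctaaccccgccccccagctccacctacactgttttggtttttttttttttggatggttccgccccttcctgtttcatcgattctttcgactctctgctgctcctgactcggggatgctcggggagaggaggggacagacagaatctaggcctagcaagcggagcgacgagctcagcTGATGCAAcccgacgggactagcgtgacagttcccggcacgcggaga
Tars1: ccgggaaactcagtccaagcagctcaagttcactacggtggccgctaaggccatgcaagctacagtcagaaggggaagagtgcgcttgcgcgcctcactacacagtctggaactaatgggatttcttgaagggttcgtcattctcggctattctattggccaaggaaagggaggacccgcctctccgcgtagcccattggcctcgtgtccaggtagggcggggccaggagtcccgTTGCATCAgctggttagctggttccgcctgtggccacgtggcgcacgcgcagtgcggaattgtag
Aars1: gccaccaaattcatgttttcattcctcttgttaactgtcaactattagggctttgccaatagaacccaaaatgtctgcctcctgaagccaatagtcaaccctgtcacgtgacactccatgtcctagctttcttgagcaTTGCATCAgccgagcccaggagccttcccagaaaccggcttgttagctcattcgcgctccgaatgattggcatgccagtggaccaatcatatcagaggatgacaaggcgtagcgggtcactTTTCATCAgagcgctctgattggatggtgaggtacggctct
Iars1: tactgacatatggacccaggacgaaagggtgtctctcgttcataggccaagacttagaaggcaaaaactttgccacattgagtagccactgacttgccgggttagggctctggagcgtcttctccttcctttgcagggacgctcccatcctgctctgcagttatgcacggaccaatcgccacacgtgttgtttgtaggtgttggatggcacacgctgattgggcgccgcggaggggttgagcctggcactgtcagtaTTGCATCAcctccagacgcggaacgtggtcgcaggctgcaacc

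The element ended 22 bases before the start in *Gars1* and 7 bases before it in *Tars1*. In *Yars1* and *Iars1* it began at base 4 and base 8 after the start, and *Aars1* held it at 2 places, 104 bases before the start and from base 10 after it. The promoter table held 26 of the 35 genes, 12 cytosolic and 14 mitochondrial, and TGATGNAA was found on either strand in 5 of the 12 and in 0 of the 14. Over all 32851 promoters of this length 3.97% held it. Of the cytosolic genes searched without a match, *Farsa*, *Kars1*, *Mars1* and *Sars1* were also called lower with CHX in the average. *Eprs1*, *Farsb* and *Qars1* had no match either and were not called. *Cars1*, *Hars1*, *Lars1*, *Nars1*, *Rars1*, *Vars1*, *Wars1*, *Hars2* and *Pars2* are not among the entries used here. A match of letters is a description of the sequence and no evidence of binding.

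The E-box CACGTG, a site for Myc, TFE3 and related factors, occurred in *Aars1*, *Iars1*, *Tars1*, *Farsb* and *Ears2*, and in 7.15% of all promoters. The core of the interferon-stimulated response element was found in *Qars1* only (3.44% of all promoters), and no match of 1 motif overlapped a match of another in these genes.

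The values are linear intensities as scaled by the authors, and array medians lay between 9.6 and 10.8. Changes are log2 differences between group means with their standard error (SE) from 1 limma fit of all 18 arrays over 27773 probe sets, and a gene was called at a Benjamini-Hochberg adjusted p under 0.01. Where several probe sets measured a gene, the one of highest mean signal stands for it. Of the 3 arrays of a group, CHX replicates 1 and 3 agreed least (r = 0.959 over all probe sets), and replicate 1 of CHX and of CHX with IFNγ had the lowest upper quartiles of intensity, 115.8 and 114.6 against 120.5 to 141.0 on the others. All 8 fibroblast markers, *Col1a1* and *Vim* included, were above the filter. All 4 endothelial markers were below it. The 4 epithelial markers passed it too, but summed to at most 45.2 on any array. The filter needs a value of at least 8.5 on 1 array, under the array medians, so passing it says little about expression. Of 5 leukocyte markers only *Cd68* passed, and the 5 summed to 71.6 to 131.0 on arrays without and 165.1 to 303.4 on arrays with CHX. *Cd68*, chosen after its values were seen, was higher with CHX (1.33, SE 0.18, adjusted p = 4.37e-05 in limma), while *Ptprc*, *Cd3e*, *Itgam* and *Csf1r* did not pass the filter. The part of this in the results was not tested.

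CHX lowered newly transcribed RNA of the cytosolic synthetases. Against mock, 9 of the 19 cytosolic genes were called lower and 0 higher, beside 7.02% of all probe sets called lower and 3.92% higher. With the CHX effect averaged over cells without IFN, with IFNα and with IFNγ, which uses 9 arrays on each side, 14 of 19 were called lower and 0 higher, against 17.9% and 12.7% of all probe sets. The median log2 change of the 19 was -0.84 against mock and -0.70 in the average, where the median of all probe sets was 0.04 and 0.03. Among the 16 mitochondrial genes, 2 were called lower and 0 higher against mock (median -0.25), and 2 lower and 1 higher in the average (median -0.12). With a minimum of 2-fold, 5 cytosolic and 1 mitochondrial gene were lower against mock (4.07% of all probe sets) and 6 and 1 in the average (5.31%). All CHX arrays lay below all mock arrays in 15 cytosolic and 5 mitochondrial genes (19.6% of all probe sets) and above them in 0 and 2 (14.6%). The arrays measured RNA of whole cultures, so a fall in all cells and one in a part of the cells cannot be told apart. As they were scaled to each other, a change shared by all labelled RNA would not be seen.

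**Figure D1:**
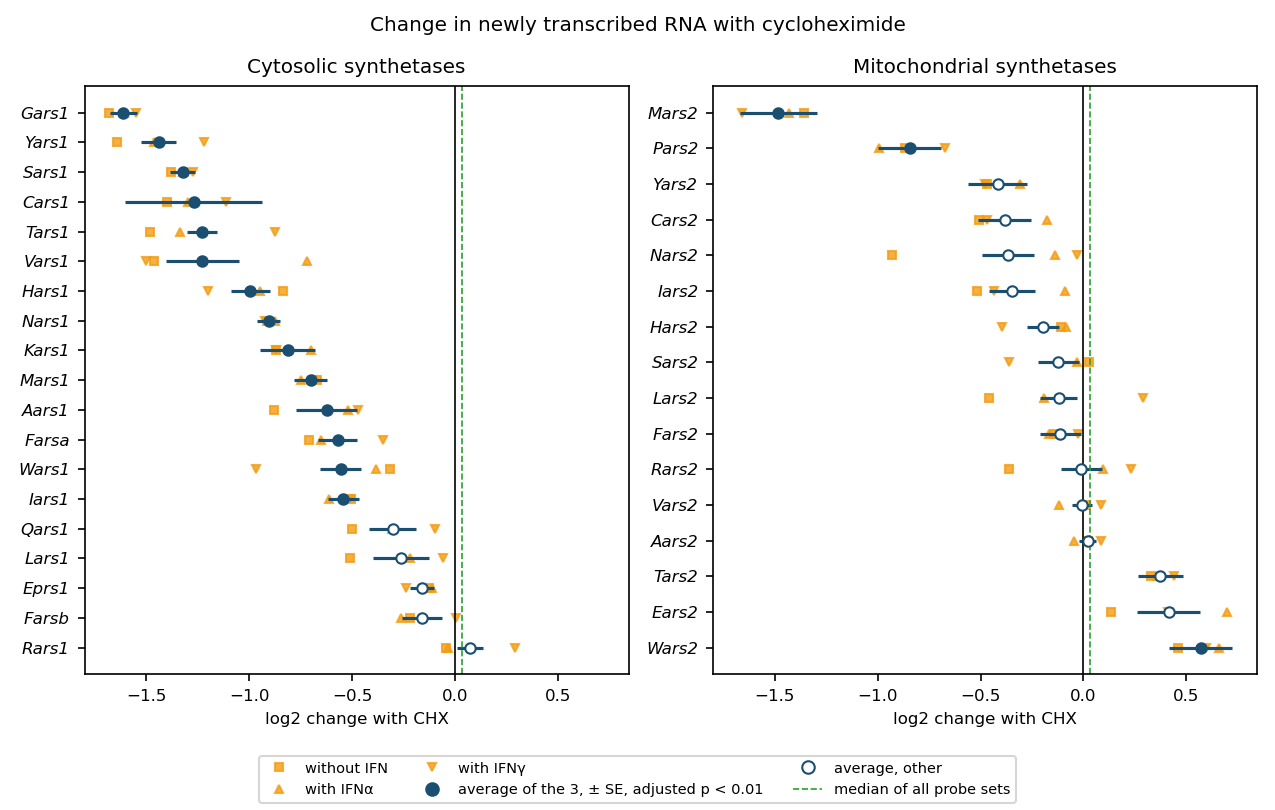
Log2 change with CHX of each synthetase gene (horizontal axis), cytosolic genes in the left panel and mitochondrial genes in the right. Circles give the average over the 3 IFN settings with its SE (9 arrays on each side, filled at an adjusted p under 0.01), small orange symbols the change in each setting, and the dashed line the median of all probe sets; 14 of 19 cytosolic circles are filled and lie left of 0, against 2 of 16 mitochondrial ones.

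The largest cytosolic change was that of *Gars1*, the glycyl-tRNA synthetase. Its intensities were 2197, 2239 and 1936 on the mock arrays, 2189, 2180.1 and 1906 with IFNα and 2772, 2903 and 2848 with IFNγ. With CHX they were 615, 766 and 614, with CHX and IFNα 753, 678 and 631, and with CHX and IFNγ 1038, 1005 and 872. All 9 arrays with CHX lay below all 9 without it, and within each set the IFNγ arrays were the highest. The average change was -1.61 (SE 0.06, adjusted p = 2.65e-10, limma), which is 3.06-fold.

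*Yars1*, the tyrosyl-tRNA synthetase, fell by 1.44 on the log2 scale (SE 0.09, adjusted p = 1.16e-08 in limma). The mock arrays read 512, 457 and 452, the IFNα arrays 436, 477 and 409 and the IFNγ arrays 552, 494 and 563. The CHX arrays read 139.9, 168 and 148, those with CHX and IFNα 194, 143 and 147, and those with CHX and IFNγ 287, 220.0 and 193. No array with CHX reached the lowest array without it.

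*Sars1*, which charges serine tRNA, had one of the smallest spreads. Without CHX it read 1458, 1204 and 1387 in mock, 1306, 1151 and 1182 in IFNα and 1356, 1073 and 1178 in IFNγ cultures, and with CHX 488, 530.1 and 533, then 534, 454 and 472 with IFNα and 519.9, 495 and 473 with IFNγ. The 9 arrays with CHX were all close together and far below the others, and the change was -1.32 (SE 0.06, adjusted p = 1.30e-09, limma).

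*Tars1*, the threonyl-tRNA synthetase, read 2557, 2667 and 2339 in mock, 2212, 2487 and 2488 with IFNα and 2871, 2569.7 and 2651 with IFNγ. Under CHX the values were 885, 945 and 874, with IFNα 1061, 1023 and 786, and with IFNγ 1558, 1253 and 1619.6. The groups with and without CHX were apart, and among the CHX arrays the 3 with IFNγ stood above the other 6. The average change was -1.23 (SE 0.07, adjusted p = 9.52e-09 in limma).

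*Vars1*, the valyl-tRNA synthetase, had a lower signal, with 174, 161 and 195 in mock, 166, 187 and 157 with IFNα, and 216, 199.7 and 233 with IFNγ. On the CHX arrays it was 33.2, 104 and 75.3, with IFNα 87.0, 109 and 116, and with IFNγ 63.4, 101 and 69.1. CHX replicate 1 was the lowest array of all, and no array with CHX overlapped those without. The change was -1.23 (SE 0.18, adjusted p = 5.96e-05, limma).

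*Cars1*, the cysteinyl-tRNA synthetase, changed by a similar amount with a wide spread (-1.27, SE 0.33, adjusted p = 0.00669 in limma). It read 173, 158 and 143 in mock, 149.7, 149 and 201 with IFNα and 118, 124 and 183 with IFNγ, against 33.3, 70.3 and 90.6 with CHX, 67.9, 85.1 and 52.3 with CHX and IFNα, and 138, 17.9 and 107 with CHX and IFNγ. The last group overlapped the arrays without CHX. The call was lost in 13 of 18 fits that left out 1 array, and it was not made in any of the 3 settings alone.

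*Hars1* and *Nars1* charge histidine and asparagine tRNA. *Hars1* read 2848, 2562 and 2590.0 in mock, 2919, 2481 and 2477 with IFNα and 2539, 2999.6 and 2552 with IFNγ, and 1219, 1484 and 1834, then 1432, 1306 and 1329, then 1027, 1524 and 1023 in the corresponding CHX cultures. *Nars1* read 2909, 3516 and 3320.0, then 2787, 3107 and 2956, then 2819, 2996 and 3027 without CHX, and 1588, 1651 and 1930.4, then 1611, 1623 and 1581, then 1473, 1508 and 1688 with it. Both genes were lower on all 9 CHX arrays, *Hars1* 1.99-fold (SE 0.09 on the log2 scale, adjusted p = 1.20e-06) and *Nars1* with a log2 change of -0.91 (SE 0.06, adjusted p = 1.85e-08, both limma).

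The multi-synthetase complex holds 7 of the cytosolic enzymes, *Eprs1*, *Iars1*, *Kars1*, *Lars1*, *Mars1*, *Qars1* and *Rars1*, bound to scaffold proteins. Of these, 3 of 7 were called lower in the average, with a median change of -0.30, against 11 of 12 outside the complex with a median of -1.11. Against mock the counts were 1 of 7 and 8 of 12, and the medians -0.50 and -1.15. Of all probe sets, 17.9% were called lower in the average and 7.02% against mock. The difference between these groups of genes was not tested.

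*Kars1*, the lysyl-tRNA synthetase of the complex, had the largest change among the 7, -0.81 (SE 0.13, adjusted p = 2.00e-04, limma). It read 712, 824 and 889.9 in mock, 594, 718 and 872 with IFNα and 749.9, 662 and 1003 with IFNγ, and 331, 486 and 534, then 505, 491 and 348, then 498, 333 and 491 with CHX in the same order. Its replicates were spread widely, and still no CHX array reached the lowest of the others.

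*Mars1*, the methionyl-tRNA synthetase, read 522, 564 and 622 in mock, 568, 504 and 541 with IFNα and 516, 545 and 615 with IFNγ. With CHX it read 324, 359.5 and 391, then 353, 280.4 and 332 with IFNα and 378, 276 and 395 with IFNγ. These groups did not overlap either, and the change was -0.70 (SE 0.08, adjusted p = 7.62e-06, limma). *Iars1*, for isoleucine, changed by -0.54 (SE 0.08, adjusted p = 4.76e-05), from a range of 1340 to 1669 on the 9 arrays without CHX to 903 to 1258 with it.

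The remaining called cytosolic genes were *Aars1* for alanine (-0.62, SE 0.15), *Farsa*, the catalytic subunit for phenylalanine (-0.57, SE 0.09), and *Wars1* for tryptophan (-0.56, SE 0.10), all of whose arrays with and without CHX overlapped. Not called were *Qars1* (-0.30, SE 0.11), *Lars1* (-0.26, SE 0.14), *Eprs1* (-0.16, SE 0.06), *Farsb* (-0.16, SE 0.10) and *Rars1* (0.07, SE 0.06), which charge glutamine, leucine, glutamate and proline, phenylalanine (the second subunit) and arginine. *Farsa* and *Farsb* encode the 2 subunits of one enzyme. Counting genes whose 9 arrays with CHX all lay below the 9 without, there were 10 of 19 cytosolic and 1 of 16 mitochondrial genes, against 7.64% of all probe sets, and 0 of the 35 lay wholly above, against 4.13%.

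**Figure D2:**
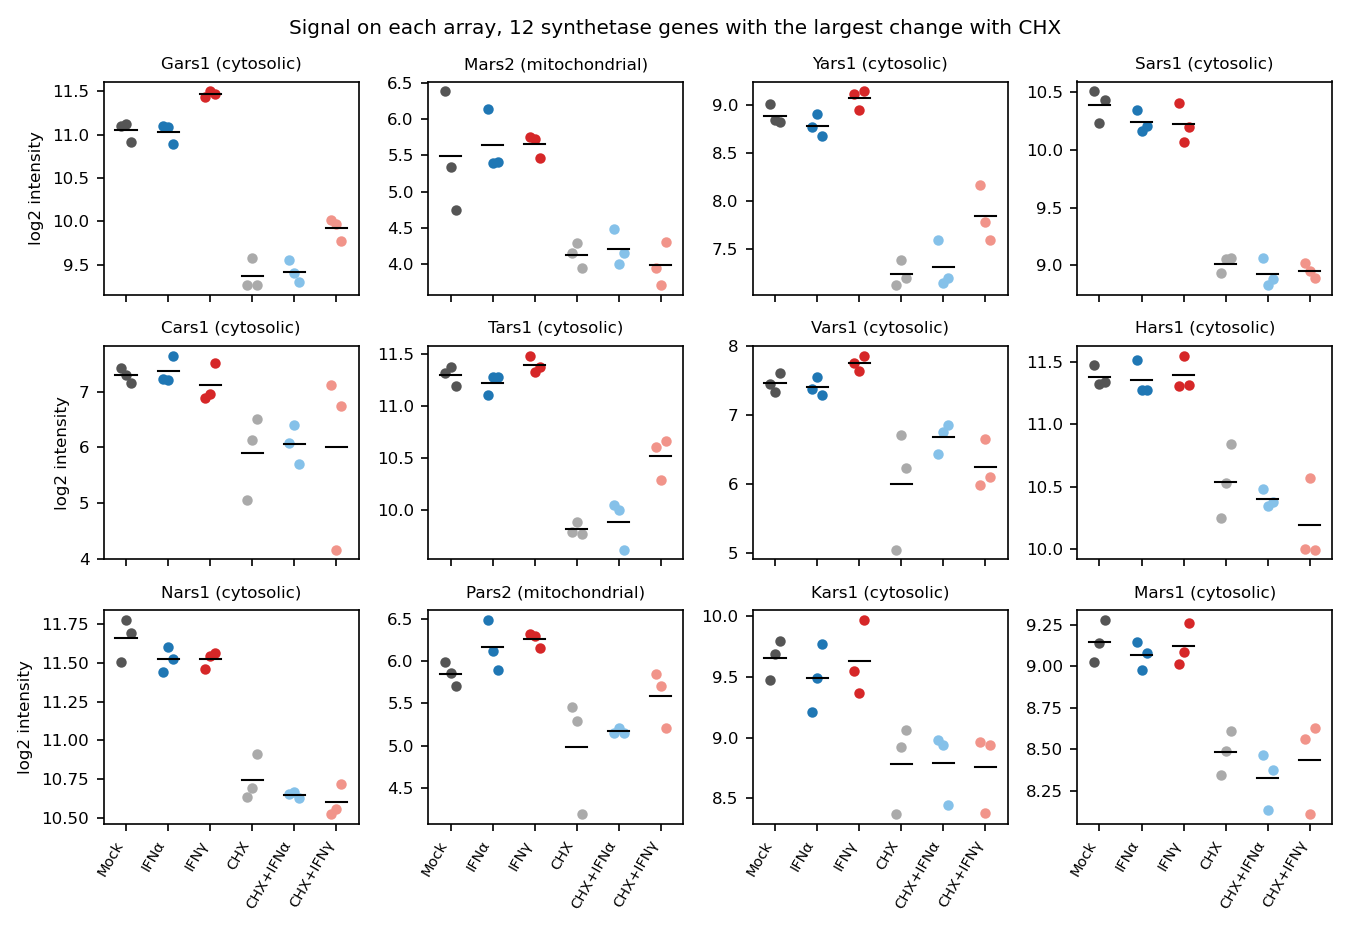
Log2 intensity (vertical axis, a separate scale per gene) on each of the 18 arrays for the 12 synthetase genes with the largest called change with CHX; each point is an array and each bar the mean of 3. In 10 of the 12 panels all 9 points with CHX lie below the 9 without, the exceptions being Cars1 and Pars2.

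Mitochondrial synthetases had weaker signals: the mean log2 intensity was under 7 for 15 of 16, from 4.23 (*Ears2*) to 8.14 (*Yars2*), and for 2 of 19 cytosolic genes. Intensities of different probe sets do not measure RNA level, but the chance of a call depends on signal. Whether the size of a change depends on it too was not tested. Of the 16502 probe sets with a mean log2 intensity under 7, 12.7% were called lower in the average, against 25.4% of the 11271 at 7 or more. The median SE of the members was close, 0.11 for mitochondrial and 0.09 for cytosolic genes.

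*Mars2*, the mitochondrial methionyl-tRNA synthetase, was the clear exception in its compartment. It read 83.6, 40.5 and 26.9 in mock, 70.3, 42.2 and 42.4 with IFNα and 54.1, 53.2 and 44.2 with IFNγ, and 17.8, 19.7 and 15.4, then 22.4, 16.1 and 17.8, then 15.5, 13.1 and 19.9 with CHX. Mock replicate 1 was the highest array, and even the lowest without CHX was above all 9 with it. The average change was -1.48 (SE 0.19, adjusted p = 1.84e-05, limma), and without mock replicate 1 the change against mock was -0.91 and not called (adjusted p = 0.0293, limma), as in 5 of 6 fits that left out 1 array. A second *Mars2* probe set had -0.05 in the average and was not called.

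*Pars2*, for mitochondrial proline, read 63.5, 58.0 and 52.0 in mock, 89.7, 69.5 and 59.3 with IFNα, 80.1, 78.6 and 71.0 with IFNγ, and 43.9, 39.3 and 18.3, then 35.6, 37.1 and 35.4, then 57.4, 52.1 and 36.9 with CHX. It was lower with CHX within every IFN setting although the 9 and 9 arrays overlapped, and the average change was -0.84 (SE 0.15, adjusted p = 4.61e-04 in limma). *Nars2*, for mitochondrial asparagine, was called against mock only (-0.93, SE 0.22, adjusted p = 0.00865), with 32.4, 54.0 and 34.9 in mock and 21.6, 20.2 and 20.1 with CHX. That call was lost in 5 of 6 fits that left out 1 array, with log2(value + 16) (adjusted p = 0.0103, limma), quantile normalization (0.0141), no filter (0.0161), the median of its 2 probe sets (0.0265) and only the arrays compared (0.0396). Its IFN groups without CHX, 19.9 to 31.0, lay mostly in the range of the CHX groups, and its average change of -0.37 was not called.

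*Wars2*, the mitochondrial tryptophanyl-tRNA synthetase, was the single member called higher (0.57, SE 0.15, adjusted p = 0.00761, limma). It read 40.2, 54.4 and 53.0 in mock, 37.8, 41.3 and 57.5 with IFNα and 33.4, 49.4 and 62.5 with IFNγ, against 59.4, 65.1 and 77.6, then 59.8, 68.2 and 86.6, then 71.0, 51.2 and 97.8 with CHX. Groups overlapped in the IFNγ setting, and the call was lost with median centring (adjusted p = 0.0139, limma), without the filter (0.0148), with the median of its 2 probe sets (0.0727) and in 13 of 18 fits that left out 1 array. *Tars2* (0.37, SE 0.11) and *Ears2* (0.41, SE 0.15) also had values above 0 and were not called. Within every IFN setting the *Tars2* arrays with CHX lay above those without. *Tars2* was called higher in the average with quantile normalization, with the median of a gene's probe sets and in some fits that left out arrays. The other 10 mitochondrial genes, *Aars2*, *Cars2*, *Fars2*, *Hars2*, *Iars2*, *Lars2*, *Rars2*, *Sars2*, *Vars2* and *Yars2*, had average changes between -0.42 and 0.02 and were not called.

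For 13 amino acids both compartments have an enzyme of their own made by 1 gene each. In the average, the cytosolic gene had the lower change in 11 of these 13 pairs, with a median difference of -0.80 between cytosolic and mitochondrial change. Against mock it was lower in 9 of 13 (median difference -0.77). The widest gap was that of threonine, where *Tars1* had -1.23 and *Tars2* 0.37, followed by valine with -1.23 for *Vars1* and -0.01 for *Vars2* and serine with -1.32 for *Sars1* and -0.12 for *Sars2*. Methionine went the other way, with -0.70 for *Mars1* and -1.48 for *Mars2*, and for arginine the difference was small (*Rars1* 0.07, *Rars2* -0.01). The methionine and histidine pairs depend on the probe set chosen. The other probe sets of *Mars2* and *Hars2* would reverse the order against the cytosolic probe sets used here. The pairs are genes of the same arrays and no replicates, and their differences were not tested. Mitochondrial genes also had weaker signals, with *Vars2* at 50.8 to 65.8 without CHX and 56.0 to 62.9 with it. A difference between compartments and one of signal cannot be told apart here.

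Of the cytosolic genes, 12 are commonly given as ATF4 targets. In the average 10 of these 12 were called lower, with a median of -0.80, and 4 of the other 7 with a median of -0.57, beside 17.9% of all probe sets. Genes of both groups therefore fell, *Vars1* and *Hars1* among the 7, and *Eprs1* and *Lars1* among the 12 did not pass the test. By the fold of the catalytic domain, class II enzymes had 8 of 9 and class I enzymes 6 of 10 genes called lower, with medians of -0.91 and -0.55. *Eprs1*, not called, was counted in class I only, although its enzyme also holds a class II domain for proline. None of these differences between groups was tested, and the groups overlap, since the complex holds mostly class I enzymes.

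The change with CHX can be followed in 3 sets of 6 arrays that share no array: without IFN, with IFNα and with IFNγ. All 3 changes were below 0 in 17 of 19 cytosolic genes and in 8 of 16 mitochondrial ones, and above 0 in 0 and 3. In cells with IFNα, 8 cytosolic and 1 mitochondrial gene were called lower and 0 higher (6.31% and 5.54% of all probe sets), 4 and 1 of them by at least 2-fold (3.58%). In cells with IFNγ, the counts were 9, 1 and 0 (9.14% and 4.9%), with 5 and 1 by at least 2-fold (5.54%). *Gars1*, *Hars1*, *Mars1*, *Nars1*, *Sars1*, *Tars1*, *Yars1* and *Mars2* were called lower in all 3. For signs and calls shared by all 3 settings no share of all probe sets is at hand, so these counts describe the genes only. Across the 19 cytosolic genes the changes of 2 settings correlated at r = 0.92, 0.83 and 0.82, and across the 16 mitochondrial genes at 0.85, 0.78 and 0.89, where the points are genes on the same arrays. *Wars1* was called with IFNγ alone among the settings (-0.97, SE 0.18).

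Other probe sets of a gene moved with the one described in some genes and less so in others. With the median of a gene's probe sets, *Cars1* had -0.73 and *Wars2* 0.39 in the average. Against mock, *Mars2* then had -0.73 and *Nars2* -0.41 with CHX. These changes were smaller than on the probe sets described, while that of *Wars1* with IFNγ was larger (1.72). The second probe sets of *Aars1* (-0.71), *Hars1* (-0.76), *Iars1* (-0.84), *Nars1* (-0.92) and *Sars1* (-1.05) were all called lower in the average, as were 2 further ones of *Farsa* (-0.66 and -1.08). For *Hars2* they disagreed, with -0.20 not called on the probe set of higher signal and -1.17 called on the other. *Fars2* had -0.11 not called and 0.36 called. *Eprs1*, with 4 probe sets between -0.16 and 0.28, and *Farsb*, with 4 between -0.28 and 0.11, had none called.

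The partners of the synthetases include scaffolds of the complex, the tRNA exporter and enzymes that edit or finish tRNAs, and 15 of them passed the filter. In the average 5 of 15 were called lower and 1 higher, with a median change of -0.21, beside 17.9% and 12.7% of all probe sets. *Aimp2*, a scaffold of the complex, had -1.63 (SE 0.10, adjusted p = 2.19e-08, limma) and *Xpot*, which exports tRNA from the nucleus, -1.50 (SE 0.08, adjusted p = 3.09e-09). *Mtfmt*, which formylates the mitochondrial initiator methionyl-tRNA, had -0.84 (SE 0.14) and *Eef1e1*, another scaffold, -0.46 (SE 0.11). *Aimp1*, the third scaffold, had 0.04 and was not called. *Qrsl1*, a subunit of the mitochondrial glutaminyl-tRNA amidotransferase, was the one called higher (0.41, SE 0.10).

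Most of the listed genes of the amino acid response that are no synthetases were also lower with CHX. Of 27 listed, 26 passed the filter, 23 were called lower in the average and 1 higher, with a median of -1.64 (17.9% of all probe sets were called lower and 12.7% higher). The 4 largest falls were *Chac1*, which degrades glutathione (-3.21, SE 0.17), *Vldlr*, a lipoprotein receptor (-2.58, SE 0.24), *Mthfd2* of mitochondrial folate metabolism (-2.42, SE 0.21) and *Sesn2*, an inhibitor of mTORC1 signalling (-2.32, SE 0.22). The gene called higher was *Atf4* itself, chosen after its values were seen (0.53, SE 0.06, adjusted p = 3.57e-06, limma). The list was drawn up with earlier results of these arrays known, and its fall is therefore no independent support for the synthetases.

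**Figure D3:**
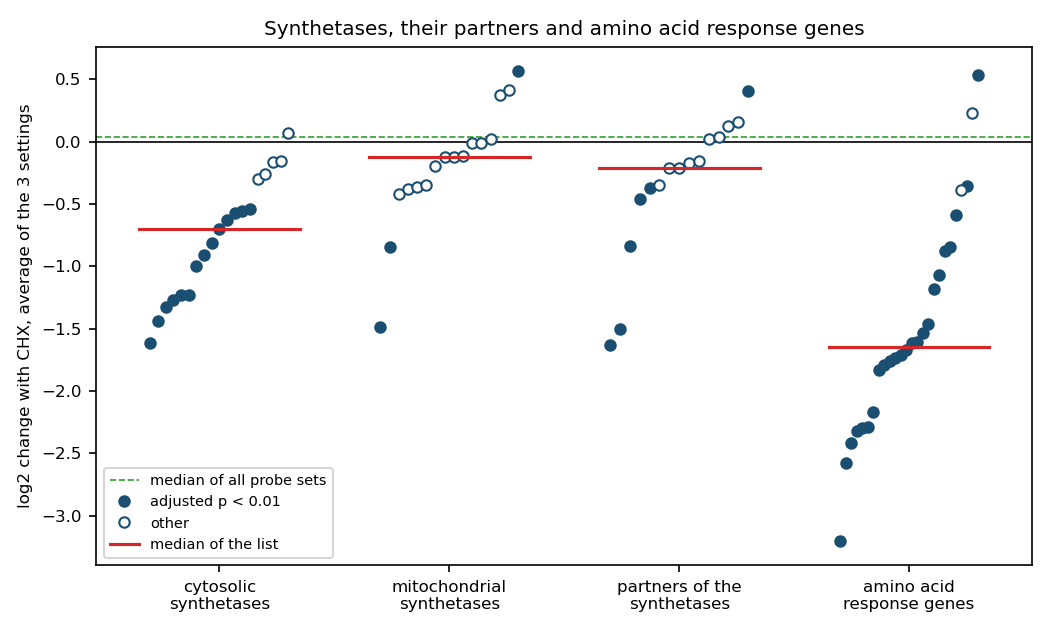
Log2 change with CHX averaged over the 3 IFN settings (vertical axis) for the genes of 4 lists, each point a gene, filled at an adjusted p under 0.01, with the list's median as a red bar. The medians are -0.70 for cytosolic synthetases, -0.12 for mitochondrial ones, -0.21 for partners and -1.64 for amino acid response genes, and the dashed line is the median of all probe sets.

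IFNα left the synthetases without a call: 0 of 35 were called by limma against mock and 0 of 35 in the presence of CHX, where 0.569% and 0.961% of all probe sets were. At an unadjusted p under 0.05 these counts were 3 and 1 of 35 (5.84% and 4.01% of all probe sets). The 3 genes were mitochondrial, *Lars2* (-0.49, SE 0.16), *Nars2* (-0.64, SE 0.22) and *Iars2* (-0.49, SE 0.19). The treatment itself was seen in the same cultures, where all 12 measured genes of the IFN check list, *Usp18* and *Mx2* included, were called higher with IFNα.

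IFNγ raised *Wars1* and no other synthetase past the test. Of 35 genes, 1 was called higher and 0 lower against mock, beside 1.71% and 0.41% of all probe sets. At an unadjusted p under 0.05 there were 5 of 35 (10.8% of all probe sets), and 1 gene rose by at least 2-fold (1.42%). *Wars1* read 161, 180.0 and 223 in mock, 218, 206 and 208 with IFNα and 523, 524 and 680.4 with IFNγ. The IFNγ arrays stood far above both other groups, which overlapped each other. The change was 1.62 (SE 0.18, adjusted p = 4.19e-05 in limma), or 3.07-fold. It kept its call without any single array (changes of 1.49 to 1.75) and lost it only when the fit was limited to the 6 arrays compared (adjusted p = 0.0104, limma).

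Under CHX *Wars1* read 145, 163 and 141, with IFNα 149, 146 and 193, and with IFNγ 267, 382 and 244. IFNγ again gave the 3 highest arrays of these 9, with a change of 0.96 (SE 0.18, adjusted p = 0.00250, limma). The difference from the response without CHX was -0.65 (interaction, SE 0.25) and did not pass the test (adjusted p = 0.485, limma). Its 4 probe sets gave changes of 1.18, 1.62, 1.65 and 1.80 with IFNγ alone, of which 3 were called, and 0.68, 0.96, 1.27 and 1.81 with IFNγ under CHX, with the same 3 called. On the probe set at 1.80 without and 1.81 with CHX the interaction was 0.02 (SE 0.40). The uncalled probe set had the lowest signal and read 84.8, 13.2 and 20.6 on the CHX with IFNγ arrays. The probe set described above and the one at 1.65 are of a design that may bind related transcripts. *Wars2*, the mitochondrial enzyme for the same amino acid, had -0.06 with IFNγ.

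**Figure D4:**
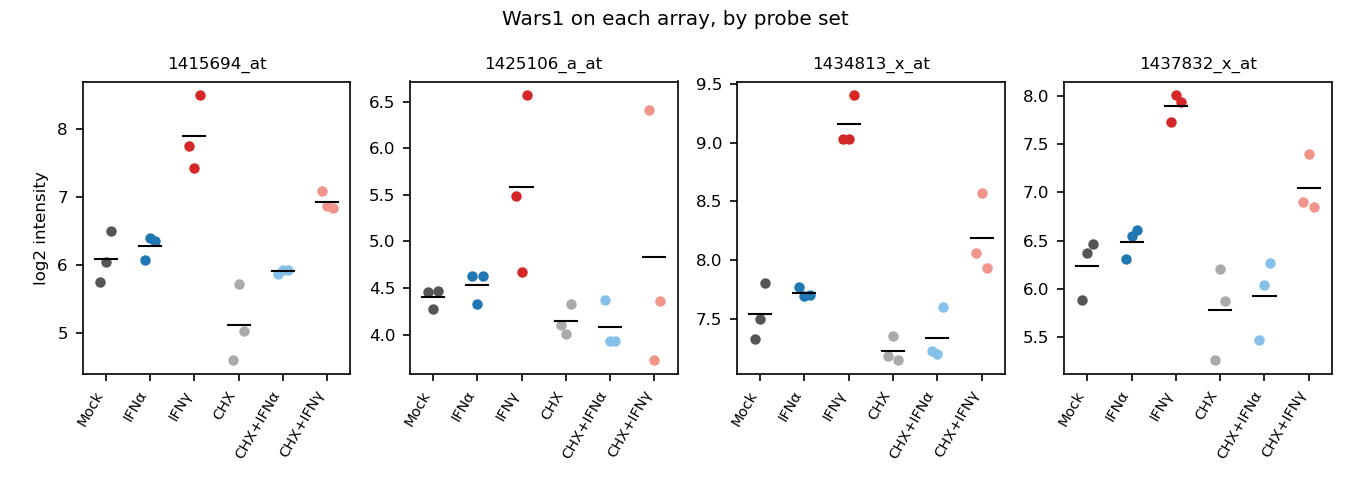
Log2 intensity of Wars1 on each of the 18 arrays (vertical axis, a separate scale per panel) for its 4 probe sets, with a bar at the mean of 3 arrays per treatment. The IFNγ arrays are the highest group in every panel, and the probe set of lowest signal has a single high array among CHX with IFNγ.

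In cells that had received CHX, IFNγ raised 5 of 35 synthetases, all cytosolic, and lowered 0, beside 3.22% and 1.12% of all probe sets. None of the 5 reached 2-fold (2.57% of all probe sets), and 7 of 35 had an unadjusted p under 0.05 (18.1%). All arrays with CHX and IFNγ lay above all CHX arrays in 6 genes (6.76% of all probe sets) and below them in 0 (8.89%). The 5 called genes were *Wars1*, *Farsa* (0.78, SE 0.16, adjusted p = 0.00701), *Tars1* (0.70, SE 0.12, adjusted p = 0.00196), *Gars1* (0.55, SE 0.11, adjusted p = 0.00607) and *Rars1* (0.50, SE 0.11, adjusted p = 0.00893, all limma). *Yars1*, the sixth gene whose arrays did not overlap, had 0.60 (SE 0.15, adjusted p = 0.0215 in limma) and was not called. The median over the 19 cytosolic genes was 0.25, that over the 16 mitochondrial genes 0.05, and that over all probe sets -0.04. These changes share the CHX arrays with the comparison of CHX against mock, in which *Farsa*, *Tars1* and *Gars1* were called lower. The calls depended on single arrays: without CHX replicate 3 there were 0 of 35, without CHX replicate 1 only *Tars1* was left and without CHX with IFNγ replicate 1 only *Wars1*.

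*Farsa* read 438, 599.7 and 508 with CHX and 1086, 879 and 706 with CHX and IFNγ, and 856, 765 and 893 in mock, 914, 1008 and 929.5 with IFNα, 1226, 943 and 1204 with IFNγ and 586, 686 and 549 with CHX and IFNα. Its arrays with CHX and IFNγ were all above the CHX arrays and overlapped mock. *Rars1*, which was not called with CHX, read 4047, 3834 and 4096 with CHX, 3887, 3881 and 3760.2 with CHX and IFNα and 6617, 4924 and 5507 with CHX and IFNγ, against 3914, 4206 and 4214 in mock, 3509, 4149 and 4179 with IFNα and 4890.5, 4283 and 4680.5 with IFNγ. The 3 CHX with IFNγ arrays were the highest of the 18, replicate 1 by a wide margin.

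**Figure D5:**
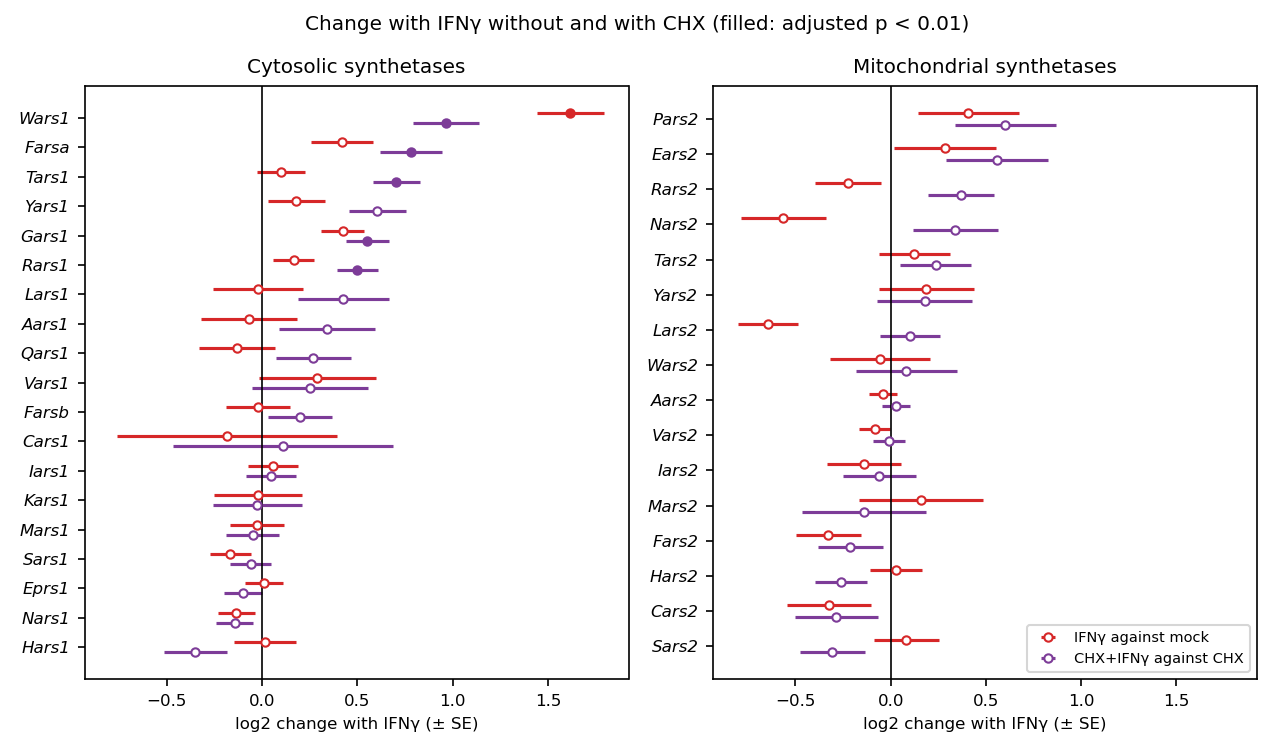
Log2 change with IFNγ of each synthetase gene (horizontal axis, bars ± SE, 3 arrays against 3), without CHX in red and with CHX in purple, filled at an adjusted p under 0.01. Wars1 is filled in both, at 1.62 and 0.96, and Farsa, Tars1, Gars1 and Rars1 are filled with CHX alone; no mitochondrial gene is filled.

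Among the partners, *Mtfmt* rose with IFNγ under CHX (2.11, SE 0.25, adjusted p = 4.12e-05) and had 1.13 (SE 0.25, adjusted p = 0.0160, both limma) without CHX, at a low signal. Of the 26 amino acid response genes, *Trib3*, a pseudokinase that inhibits ATF4, was the single one called with IFNγ, at 1.11 (SE 0.20) without and 2.86 (SE 0.20) with CHX. Of all probe sets, 1.71% were called higher with IFNγ and 3.22% with IFNγ under CHX, so a single called gene is no result about its list. The median of the list with IFNγ under CHX was -0.19.

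Whether CHX changed the response to an IFN was tested as an interaction, and 0 of 35 synthetases were called by limma for either IFN, beside 0.187% of all probe sets for IFNα and 0.241% for IFNγ. At an unadjusted p under 0.05 the counts were 1 and 6 of 35 (3.96% and 7.78% of all probe sets). The 6 with IFNγ were *Tars1* (0.61, SE 0.18), *Lars2* (0.75, SE 0.22), *Nars2* (0.90, SE 0.32), *Wars1*, *Rars2* (0.59, SE 0.24) and *Rars1* (0.33, SE 0.15), and the lowest adjusted p among them was 0.237 (*Tars1*, limma). That *Farsa*, *Tars1*, *Gars1* and *Rars1* passed the test for IFNγ with CHX and not without it is therefore not shown to be a difference between the 2 responses.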

How the data were processed

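The 18 arrays hold 4sU-tagged RNA of 6 treatments, 3 arrays each. The deposited values are linear intensities, 1 for each probe set on each array, which the authors computed with gc-RMA according to their methods; the submitters' processing notes name Affymetrix Expression Console, with no version. Groups and replicate numbers are those of the sample labels. From 45101 probe sets, 64 controls were left out. Present calls were not used here, so the 27773 probe sets with the highest value on any array (at least 8.5) were kept, about as many as in the study. The log2 of the intensity, with no added constant, was fitted in limma 3.58.1 (R 4.3.3) as 1 model of 6 groups with 12 residual and 2.05 prior degrees of freedom. Within each comparison, Benjamini-Hochberg adjustment covered all probe sets kept, and the procedure was tested on simulated data. Symbols were matched to RefSeq by gene ID for all 35 genes. A single symbol is annotated for 34945 of 45037 probe sets, several for 932, which were not used, and none for 9160. Each gene was represented by its kept probe set with the highest mean log2. Array values are given for the 12 genes with the largest called CHX effect averaged over the 3 IFN settings, for genes called with an IFN and for *Wars1*, and up to 4 genes of another list are named. The members and lists were chosen with earlier results of these data known. Arrays have no depth: 3 per group, and signal over background, limit the precision. Alternatives were log2(value + 1), log2(value + 16), quantile normalization, median centring, no filter, a filter on the mean, a replicate block, an intensity trend, only the arrays compared, the median of a gene's probe sets, a minimum of 2-fold, an adjusted p under 0.05, leaving out each array and, added after seeing the data, leaving out the 2 arrays of lowest upper quartile. One listed marker and 1 promoter motif are not reported here.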

Additional observations from a re-analysis of the deposited data

How the results depend on the processing

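No result changed sign under any alternative tried. For CHX against mock, the 9 cytosolic genes called lower became 4 with only the arrays of the comparison and 5 with a minimum of 2-fold, and leaving out 1 array gave 6 to 9. The 2 mitochondrial genes became 0 with log2(value + 16), quantile normalization, no filter, only the arrays of the comparison, the median of a gene's probe sets or without the 2 arrays of lowest upper quartile, 1 with the 2-fold minimum, and 0 to 1 without single arrays. Calls higher stayed at 0 in both compartments, 0 to 0 without single arrays. The cytosolic median of -0.84 became -0.66 without those 2 arrays, and without single arrays it ran from -0.85 to -0.66 and the mitochondrial median from -0.31 to -0.12. For CHX in IFNα cells the 9 called became 5 with the fold minimum, and in IFNγ cells the 10 called became 5 with only the arrays compared and 6 with the fold minimum, with 6 to 8 and 8 to 10 without single arrays. The average over the 3 settings gave 17 called, 7 with the fold minimum and 15 to 19 without single arrays. For IFNγ against mock the 1 called became 0 with only the arrays compared and 2 at an adjusted p under 0.05, and 1 to 2 without single arrays. For IFNγ with CHX the 5 called became 0 with only the arrays compared, 0 without the 2 arrays and 0 with the fold minimum, and 0 to 4 without single arrays. IFNα and both interactions gave 0 throughout. *Gars1*, *Sars1*, *Tars1* and *Yars1* were called for CHX against mock in each of 18 settings without a fold minimum, and 15 of 17 genes in the average in each of 29, *Cars1* and *Wars2* being the exceptions. Fits limited to 6 arrays have fewer degrees of freedom; the cause of the other shifts was not tested. With the replicate number as a block, the counts were 11 cytosolic and 3 mitochondrial genes lower for CHX against mock, 10, 11, 1 and 5 for CHX in IFNα cells, CHX in IFNγ cells, IFNγ, and IFNγ with CHX, and 20 in the average, where the 3 added were the mitochondrial *Cars2*, *Iars2* and *Yars2*, all lower. Of 45 same-numbered pairs, 38 deviated together (r over 0.1, median 0.47, range -0.40 to 0.78), against a median of -0.31 in 90 other pairs, and 14 of 18 arrays were closest to their own number. These values are a hint of a shared replicate effect. The block was kept as an alternative because the labels give the numbers no shared origin and not every pair was over 0.1.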
